A study of Mus musculus with 6 samples.

Results

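The cytosolic ribosomal protein genes were taken as the protein-coding genes named Rpl, Rplp or Rps with a number, together with *Rpsa*, that had a mean of at least 10 counts over the 6 cerebellar libraries. The symbol pattern matched 80 genes and the count minimum left 77 of the 53715 genes in the table, 46 of the large subunit and 31 of the small subunit. The 3 genes below the minimum were the paralogs *Rpl3l*, *Rpl39l* and *Rpl10l*. RNA-Seq was made of the whole cerebellum of male mice of strain C57BL/6 (C57BL/6J in the study's methods) at 4 weeks of age, 3 of them controls and 3 with neuron-specific loss of *Slc39a8* (*Slc39a8*-NSKO, in short NSKO). The *Slc39a8*-NSKO mice carried floxed *Slc39a8* alleles and a Cre transgene under the synapsin I promoter, which is active in neurons and whose strength may vary between brain regions. The data do not show in which cells the gene was lost. The control mice were named wild type in the sample labels and *Slc39a8* fl/fl in the study's text, and the counts do not settle which they were. The design asked whether loss of this manganese, zinc and iron importer in neurons altered the mRNAs, and the 77 genes were also read against the size of the library.

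Each ribosome holds a single copy of nearly every ribosomal protein, and the small subunit reads the mRNA while the large subunit forms the peptide bond. The acidic proteins *Rplp0*, *Rplp1* and *Rplp2* form the stalk that recruits the elongation factors. Most of these mRNAs begin with a C followed by a run of pyrimidines, the 5′ terminal oligopyrimidine tract, through which mTOR signaling sets how much of the mRNA is translated. Neurons translate mRNA in the cell body and also in dendrites, where ribosomes are found near synapses.

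The counts on genes ranged from 14431260 to 20844267 per library, and the 2 smallest libraries were both from control mice. *Slc39a8* itself had 99, 46 and 44 counts in control mice and 38, 40 and 41 in NSKO mice, not scaled to library size. Its log2 fold change was -0.83 with an adjusted p of 0.534 in the edgeR quasi-likelihood test. The study reported it as downregulated in the NSKO cerebellum. Markers of granule cells and Purkinje cells were present in every library, with summed levels of 4482 to 4906 and 5698 to 6854 counts per 1000000 (CPM). Pairs of libraries differed by 3.79 to 8.89 times the sampling noise (chi-square per degree of freedom), so none was a copy of another. Here and below, p values measure the spread between these mice, and in whole tissue fewer cells of a type and less RNA per cell cannot be told apart.

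The start of the transcript shows the feature for which these mRNAs are known. RefSeq promoter windows (GRCm38.p6) were matched to 57 of the 77 genes, and a C at the annotated start followed by at least 4 pyrimidines was found in 13 of these, or 22.8%, against 3.01% of 27025 genes. A run of that form that began within 10 bases of the annotated start on either side was found in 61.4% of the 57 genes and in 34.4% of all genes. The 30-base windows below run from 10 bases before the start to 20 bases from it on the coding strand. They are shown for genes that have the run and for genes that carry the results further on, and capitals mark the run that begins at the start.

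Rps6, chr4:86857348-86857377, minus strand: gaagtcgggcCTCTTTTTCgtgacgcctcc
Rps15a, chr7:118116128-118116157, minus strand: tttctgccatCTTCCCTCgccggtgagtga
Rps27, chr3:90213629-90213658, minus strand: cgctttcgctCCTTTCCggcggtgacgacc
Rps21, chr2:180257369-180257398, plus strand: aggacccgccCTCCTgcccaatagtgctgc
Rpl38, chr11:114668570-114668599, plus strand: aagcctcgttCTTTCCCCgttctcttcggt
Rplp2, chr7:141447641-141447670, plus strand: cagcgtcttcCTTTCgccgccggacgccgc
Rpl15, chr14:18270967-18270996, minus strand: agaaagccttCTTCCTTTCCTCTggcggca
Rps13, chr7:116334171-116334200, minus strand: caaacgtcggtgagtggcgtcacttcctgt
Rpl41, chr10:128549149-128549178, minus strand: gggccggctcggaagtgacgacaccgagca
Rpl39, chrX:37085203-37085232, minus strand: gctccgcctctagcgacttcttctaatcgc
Rps7, chr12:28635934-28635963, minus strand: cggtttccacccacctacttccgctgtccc
Rps27l, chr9:66946076-66946105, plus strand: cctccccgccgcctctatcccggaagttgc

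The runs were 5 bases long in *Rps21* and *Rplp2*, 9 in *Rps6* and 13 in *Rpl15*. In *Rps13*, *Rpl41*, *Rpl39*, *Rps7* and *Rps27l* no such run began at the annotated start, which says only that these letters are not at that position of the annotation. Over the full windows of 300 bases, from 250 before to 50 after the start, CCGGAA on either strand occurred in 56.1% of the 57 genes and in 16.7% of all genes. AAGATGG, also on either strand, occurred in 15.8% against 7.28%, and TATAAA in 10.5% against 15.7%. The ends of these motifs can share the letters AA, so that neighboring matches may overlap. Of the 57 genes, 9 had more than 1 annotated start, and a gene was counted when any of its windows held the motif.

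The levels of the 77 mRNAs in the cerebellum spanned a wide range. Per kb of transcript, the median level was 235 CPM per kb and the middle of the distribution lay between 170 and 298 (quartiles). The highest levels were those of *Rplp1* at 610 CPM per kb, followed by *Rps21* at 527, *Rps14* at 514, *Rps29* at 488 and *Rps27* at 455. *Rplp1* encodes a stalk protein, and the others are proteins of the small subunit. The lowest were *Rps20* at 23.1, *Rps27l* at 28.5 and *Rpl5* at 67.7 CPM per kb, with *Rps24* at 89.9 and *Rps19* at 103. The annotated transcripts used for *Rps20*, *Rpl5*, *Rps24* and *Rps19* were long, at 3706, 2045, 1613 and 1284 bases, which lowers a value per kb. *Rps27l*, a paralog of *Rps27*, reached 28.5 CPM per kb where *Rps27* reached 455.

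**Figure D1:**
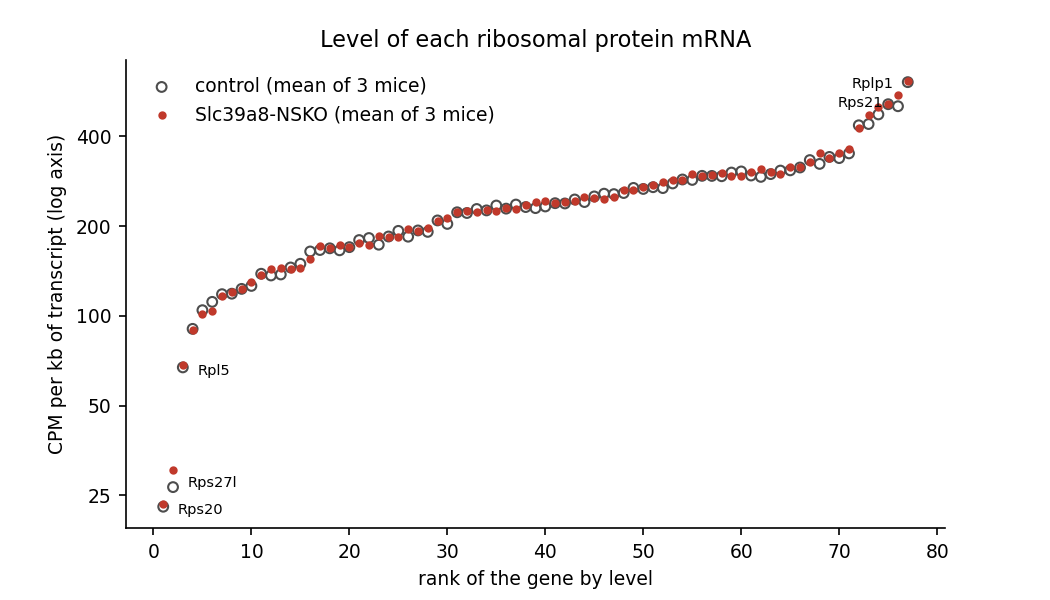
Level of each of the 77 ribosomal protein mRNAs, in CPM per kb of transcript on a log axis, ranked from lowest to highest; open circles are the means of 3 control mice and filled circles the means of 3 NSKO mice. The circles of the 2 genotypes nearly coincide along the whole range, from Rps20 at 23.1 to Rplp1 at 610, with a correlation of 0.997 across genes.

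The order of the levels was nearly the same in both genotypes. Across the 77 genes, the log2 levels of control and NSKO mice had a Pearson correlation of 0.997, given as a description since the genes share the same libraries and transcript lengths. Single genes had 218 to 9308 counts in a mouse. *Rplp1* had 287, 317 and 306 CPM in control mice and 290, 327 and 299 in NSKO mice, so the genotypes overlapped.

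The total amount of ribosomal protein mRNA did not separate the genotypes. The 77 genes held 1.30%, 1.39% and 1.35% of the counts on genes in control mice, a mean of 1.35% ± 0.0480 (SD, n = 3). They held 1.30%, 1.43% and 1.35% in NSKO mice, a mean of 1.36% ± 0.0655 (SD, n = 3). The difference of 0.0138 percentage points was smaller than the SD of either genotype. The large subunit had 0.835% ± 0.0271 in control and 0.839% ± 0.0388 in NSKO mice. The small subunit had 0.512% ± 0.0210 and 0.522% ± 0.0267 (SD, n = 3 in each).

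No single ribosomal protein gene passed an adjusted p below 0.05 in the edgeR quasi-likelihood test, where 0.098% of the 16330 genes tested did, 0.0245% higher and 0.0735% lower in NSKO mice. None had an unadjusted p below 0.05 either, where 5.39% of all genes did. DESeq2, which called 0.136% of the 27181 genes it gave an adjusted p, called 0 of the 77 at the adjusted threshold. So did limma-voom, which called 12 of the 16330 genes. Both gave 0 of the 77 an unadjusted p below 0.05. The smallest unadjusted p was 0.0636, for *Rpl41*, with an adjusted p of 0.934. The median log2 fold change, NSKO over control, was 0.0085 over the 77 genes and 0.0011 over all genes tested. Of the 77 values 46 lay above 0 and 31 below, or 59.7% above, against 50.5% of all genes. This median was -0.010 without control mouse 1, -0.026 without NSKO mouse 2 and -0.013 with offsets for transcript length and GC content. In the other direction, the median was 0.035 without control mouse 2, 0.038 without NSKO mouse 1 and 0.047 with log2 library size as a covariate.

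The precision of these values bounds the size of a difference. All 77 genes had a 95% confidence interval inside ±0.5 on the log2 scale, and 73 had one inside ±0.25. The lowest bound was -0.30, of *Rpl39*, and the highest was 0.40, of *Rps27l*. The fold change lay within 0.1 of 0 in 73 genes, or 94.8%, against 60.5% of all genes. The median standard error of the log2 fold change was 0.0583 for the ribosomal protein genes and 0.0958 for all genes, and the median SD of log2 CPM among mice of a genotype was 0.0728 against 0.119. *Rpl7a* varied least, with an SD of 0.0207, and *Rps7* most, with an SD of 0.217.

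**Figure D2:**
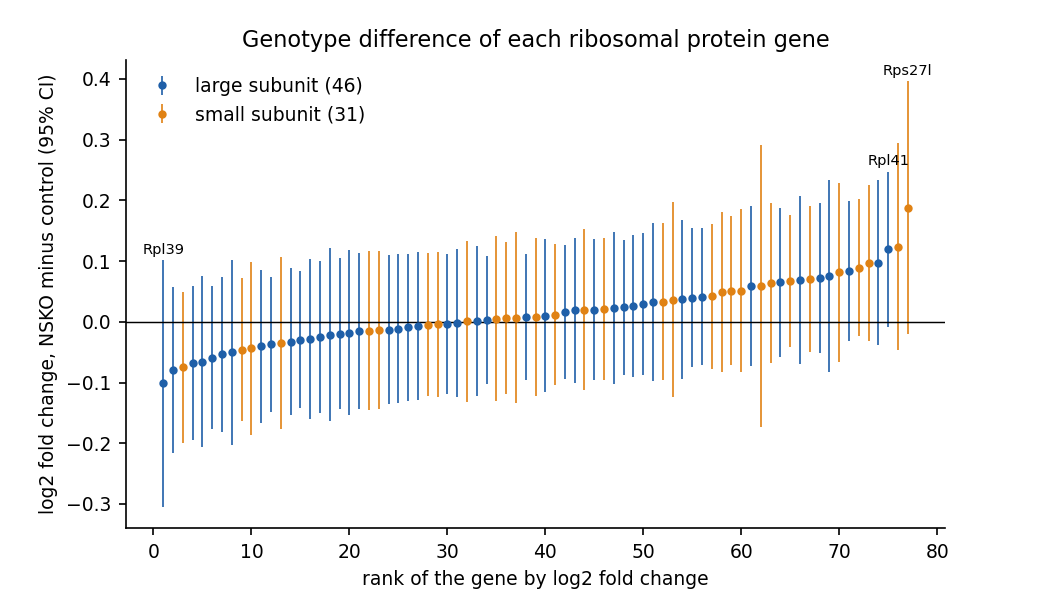
Log2 fold change of each ribosomal protein gene, NSKO minus control, ranked, with 95% confidence intervals from edgeR (3 mice in each genotype); colors give the subunit. Every interval includes 0, and the extremes are Rpl39 at -0.10 and Rps27l at 0.19.

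The genes at the upper end were mostly of the small subunit or encode very short proteins. *Rps27l* (chr9:66946086-66949516), the paralog of *Rps27* that p53 can induce, had 14.6, 15.1 and 16.2 CPM in control mice and 18.0, 18.5 and 15.8 in NSKO mice. NSKO mice 1 and 2 lay above every control, and mouse 3 lay among them. Its log2 fold change was 0.19 with an SE of 0.0967 and an adjusted p of 0.954 (edgeR). *Rps27* itself had 142, 150 and 164 CPM in control and 161, 166 and 160 in NSKO mice, which gave a log2 fold change of 0.10.

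*Rps21*, a small subunit protein, had 179, 187 and 231 CPM in control mice and 210, 220 and 220 in NSKO mice. Control mouse 3 was the highest of the 6 mice and controls 1 and 2 the lowest, so the log2 fold change of 0.12 (SE 0.0790) was 0.25 without control mouse 3, with an adjusted p of 0.458 (edgeR). *Rpl41*, which encodes the smallest ribosomal protein, had 156, 163 and 175 CPM in control and 170, 186 and 181 in NSKO mice. Its log2 fold change was 0.12 with an SE of 0.0592, and control 3 lay above NSKO mouse 1. *Rpl37*, of the large subunit, had a log2 fold change of 0.10 with overlapping genotypes.

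The genotypes did not overlap in 2 of the 77 genes (2.60%), where 10.4% of all genes tested did not. Both had higher values in NSKO mice, a pattern seen in 5.09% of all genes, and none lay below the controls in every mouse, as 5.26% of all genes did. *Rps13* (chr7:116331505-116334195), a small subunit protein, had 108, 107 and 111 CPM in control and 112, 118 and 116 in NSKO mice, for a log2 fold change of 0.09 and an SE of 0.0525. *Rps15a* (chr7:118104372-118116188), also of the small subunit, had 150, 143 and 148 CPM in control and 153, 158 and 152 in NSKO mice, for a log2 fold change of 0.07 and an SE of 0.0506. Neither passed the test, with adjusted p values of 0.982 and 0.994 (edgeR).

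At the lower end, *Rpl39* (chrX:37082520-37085402), a small protein of the peptide exit tunnel, had 65.6, 67.5 and 71.4 CPM in control mice and 66.1, 72.1 and 52.3 in NSKO mice. NSKO mouse 2 was the highest and mouse 3 the lowest of all, and the log2 fold change of -0.10 (SE 0.0944) became 0.02 without mouse 3. *Rpl7* had a log2 fold change of -0.08, *Rpl22* and *Rpl21* had -0.07 each, and *Rpl3*, a large subunit protein that reaches toward the peptidyl transferase center, had -0.06. *Rpl3* had 353, 354 and 334 CPM in control and 315, 352 and 333 in NSKO mice. These genes were all of the large subunit, and the genotypes overlapped in each.

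Several other ribosomal proteins were read for their known roles. *Rps6*, the phosphorylated target of S6 kinase, had 261, 266 and 250 CPM in control and 258, 275 and 249 in NSKO mice, for a log2 fold change of 0.01. The stalk proteins *Rplp0*, *Rplp1* and *Rplp2* had log2 fold changes of 0.00, 0.01 and 0.07. *Rpl5* and *Rpl11*, which bind *Mdm2* when ribosome assembly is disturbed, had 0.02 and -0.02. *Rps19*, the gene most often mutated in Diamond-Blackfan anemia, had -0.04, *Rpsa*, which doubles as a laminin receptor, had -0.00, and *Rps27a*, made as a fusion with ubiquitin, had 0.02. The X-linked *Rps4x* had -0.01 and *Rpl36a* had 0.08, and none of these passed the test.

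By subunit, the median log2 fold change was 0.00 for the 46 genes of the large subunit, with 23 above 0, and 0.021 for the 31 genes of the small subunit, with 23 above 0. The large subunit values ran from -0.10 to 0.12 and those of the small subunit from -0.08 to 0.19. The difference between the subunits was not tested.

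What the 77 genes shared was a shift from mouse to mouse within each genotype. For each gene, the log2 CPM in a mouse was taken relative to the mean of that gene over the 6 mice. The median of these deviations over the 77 genes was -0.053, 0.052 and 0.000 in control mice and -0.050, 0.078 and -0.004 in NSKO mice. Over all genes tested the same medians lay between 0.0018 and 0.0053. The scaling of the libraries holds these medians near 0, so they do not test whether the shift of the 77 genes stands out. The highest and lowest mice were therefore 0.13 apart on the log2 scale, and mice within a genotype were 0.10 (control) and 0.13 (NSKO) apart, against a median genotype difference of 0.0085.

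The shift ran through most of the genes. NSKO mouse 2 was above the gene's own mean in 76 of the 77 genes and was the highest mouse in 44 of them. Control mouse 2 was above the mean in 54 genes and the highest mouse in 25. Control mouse 1 was above the mean in 7 genes and NSKO mouse 1 in 15, and these were the lowest mice in 24 and 36 genes. Control mouse 3 and NSKO mouse 3 lay between, with 40 and 35 genes above the mean. *Rpsa* shows the pattern, with 283, 312 and 290 CPM in control and 284, 307 and 292 in NSKO mice.

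**Figure D3:**
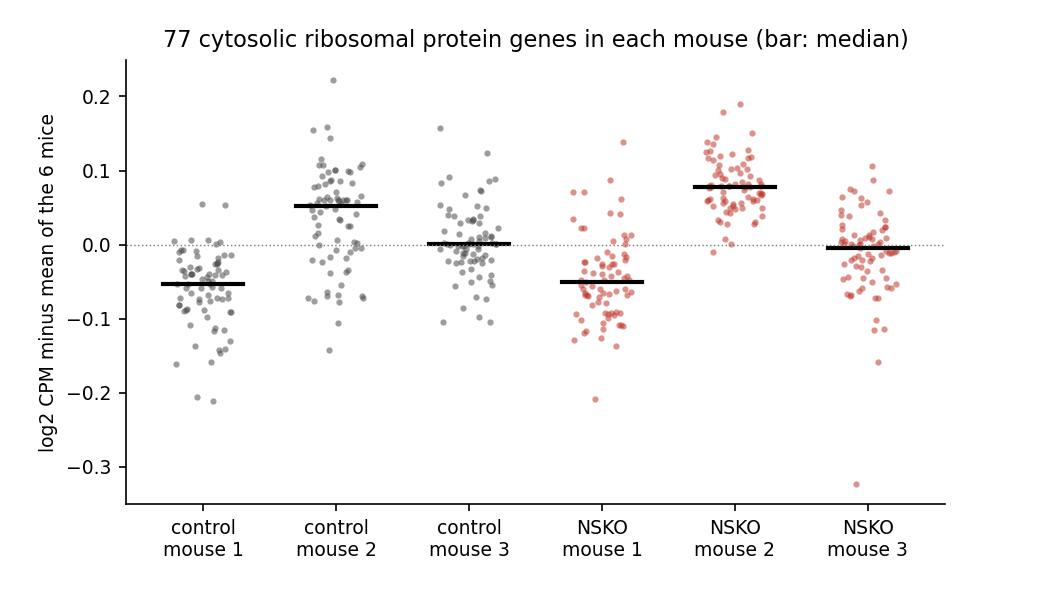
Deviation of each of the 77 ribosomal protein genes from its own mean over the 6 mice, in log2 CPM, for every mouse; each point is a gene and the bar is the median. Mouse 2 of each genotype sits high (0.052 and 0.078) and mouse 1 of each genotype low (-0.053 and -0.050), while the genotypes cover the same range.

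Genes of the respiratory chain moved with this shift. The 85 nuclear genes for subunits of oxidative phosphorylation, 83 of them tested, held 1.36%, 1.42% and 1.40% of counts in control mice. In NSKO mice they held 1.36%, 1.45% and 1.39%, and mouse 1 of each genotype was lowest and mouse 2 highest. The 13 mitochondrially encoded mRNAs held 4.47%, 5.17% and 4.70% in control and 4.41%, 4.98% and 4.32% in NSKO mice, again with mouse 2 of each genotype highest. With the mitochondrially encoded genes left out of the total, the ribosomal protein share was 1.42% ± 0.0562 in control and 1.43% ± 0.0745 in NSKO mice (SD, n = 3 in each). Markers of other cell types also differed between mice. Summed choroid plexus markers were highest in mouse 2 of each genotype, at 924, 1076 and 745 CPM in control and 1026, 1514 and 873 in NSKO mice. Summed Bergmann glia and astrocyte markers were lowest in mouse 2 of each genotype, at 1990, 1800 and 2098 CPM in control and 2202, 2130 and 2150 in NSKO mice. Purkinje cell markers stood at 6641, 5698 and 5952 CPM in control and 6496, 6854 and 6307 in NSKO mice, lowest in control mouse 2 and highest in NSKO mouse 2. Granule cell markers stood at 4722, 4489 and 4555 CPM against 4906, 4484 and 4482, highest in mouse 1 of each genotype. Endothelial markers (108 to 123 CPM) and heart muscle markers (0.706 to 1.67 CPM in control and 9.39 to 12.3 in NSKO mice) were also highest in mouse 2 of each genotype. Microglial markers (83.7 to 102 CPM), oligodendrocyte markers (7109 to 8745), erythroid markers (234.0 to 555) and markers of proliferating granule cell precursors (26.6 to 29.5) did not have mouse 2 as the highest, or as the lowest, in both genotypes. The part of these values in the shift was not tested. RNA integrity is known only as a minimum of 7.2 for every sample.

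The shortest ribosomal protein genes departed from the common shift. The 9 genes whose longest annotated coding sequence was at most 300 bases, a limit set after the values were seen, were *Rpl37*, *Rpl37a*, *Rpl38*, *Rpl39*, *Rpl41*, *Rps21*, *Rps27*, *Rps28* and *Rps29*. Their median deviation was -0.142, -0.068 and 0.067 in control mice and 0.035, 0.089 and 0.021 in NSKO mice, so that controls 1 and 2 were low. For the other 68 genes it was -0.045, 0.058 and -0.002 in control and -0.060, 0.075 and -0.008 in NSKO mice. Control mouse 2 was thus low for the short genes and high for the long ones.

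**Figure D4:**
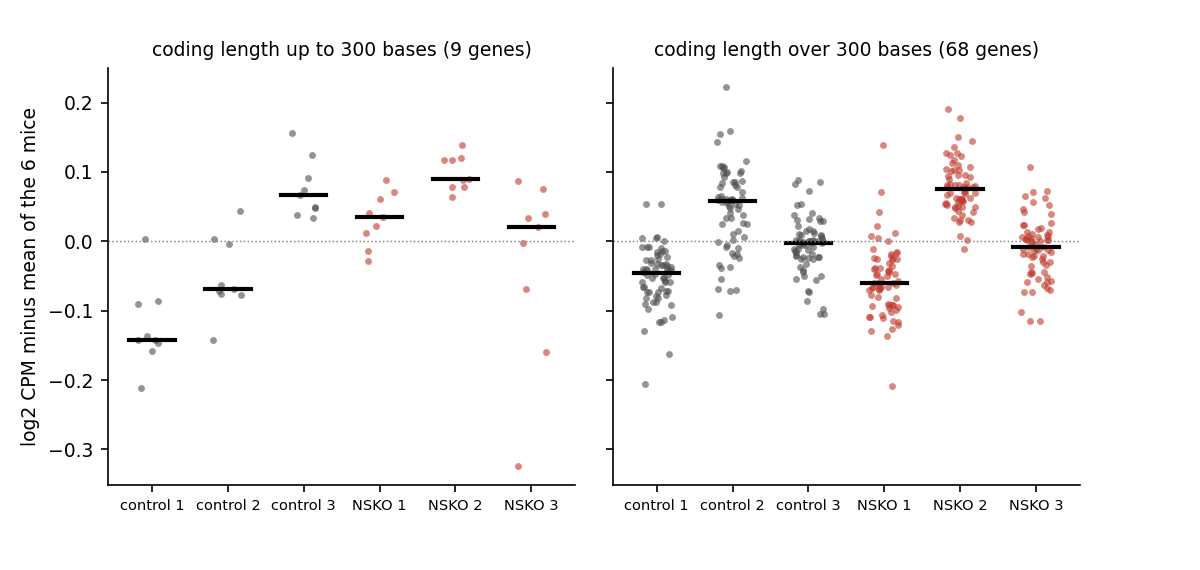
Deviation from the gene's own mean over the 6 mice, in log2 CPM, for the 9 genes with a coding length of at most 300 bases (left) and the other 68 (right); points are genes, bars are medians. Control mice 1 and 2 are low in the left panel (-0.142 and -0.068), and control mouse 2 is high in the right panel (0.058).

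The short genes also made up much of the upper end of the genotype comparison. Their median log2 fold change was 0.08, with 8 of 9 above 0, and that of the other 68 genes was 0.0057, with 38 above 0. *Rps29* had 172, 180 and 202 CPM in control and 199, 206 and 181 in NSKO mice, and *Rpl37a* had 158, 159 and 172 against 173, 176 and 170. In both genes control mice 1 and 2 were the lowest of the 6. Without control mouse 3 the median of the short genes was 0.15, and without control mouse 1 it was 0.04. Across the 77 genes, the log2 fold change and the log2 coding length had a Pearson correlation of -0.414 and a Spearman correlation of -0.435, as a description over genes that share 6 libraries. With log2 transcript length in place of coding length, the Pearson correlation was -0.285 and the Spearman correlation -0.291 over the 77 genes, and over all genes tested they were 0.0099 and 0.014. With gene-wise offsets for transcript length and GC content, the median of the short genes was 0.06 and that of the others -0.02.

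The ribosomal protein share was also read against library size. The largest library, of control mouse 1, had the lowest share (1.30%), and NSKO mouse 2, with the highest share (1.43%), had 19441352 counts. Across the 6 mice, the share and the log2 total had a Pearson correlation of -0.428 and a Spearman correlation of -0.657. Without the 2 smallest libraries the Pearson correlation was -0.580. These are descriptions, since the libraries differed by 0.53 log2 units in all and the small ones were both controls.

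**Figure D5:**
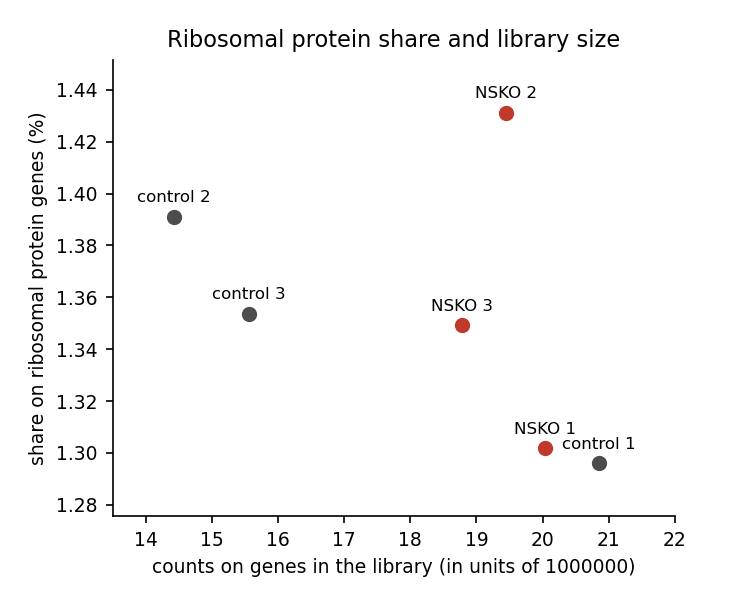
Share of counts on the 77 ribosomal protein genes, in percent, against the counts on genes in the library, for each mouse; the vertical axis does not start at 0. Control mouse 1 and NSKO mouse 1, the largest libraries, have the lowest shares (1.30% each), and NSKO mouse 2 has the highest (1.43%) at an intermediate size.

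With genotype in the edgeR fit, the slope of each gene on log2 library size was below 0 in 70 of the 77 genes, or 90.9%, where 50.4% of all genes had a slope below 0. The median slope was -0.19 log2 units per doubling of library size, against -0.0030 for all genes, and the median SE was 0.164. The median was -0.43 without control mouse 1 and -0.087 with offsets for transcript length and GC content. With genotype in the fit, the slopes rested mostly on the control mice, whose totals were 20844267, 14431260 and 15555933. The NSKO totals lay between 18779182 and 20030339. None of the 77 passed an adjusted p below 0.05, where 0.11% of all genes did, and limma-voom also called 0. An unadjusted p below 0.05 was found in 4 genes with edgeR and in 4 with limma-voom, or 5.19%, where edgeR gave 10.9% of all genes. Slopes lay below 0 in 42 of 46 large subunit genes and in 28 of 31 small subunit genes.

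*Rps7* (chr12:28630854-28635953), a small subunit protein, had the steepest slope, at -0.72 (SE 0.251, adjusted p = 0.30 in edgeR). It had 167, 225 and 180 CPM in control and 167, 220 and 208 in NSKO mice, low in mouse 1 and high in mouse 2 of both genotypes. *Rpl26* had -0.42 and *Rps21* had -0.37. *Rpl23* had -0.36 with an unadjusted p of 0.0424 (edgeR), and *Rps7* and *Rpl26* were also below 0.05 before adjustment. Among the positive slopes were 0.10 for *Rpl10*, 0.10 for *Rps15a* and 0.02 for *Rpl3*, each within its SE of 0.149 to 0.164.

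The other genes of the pathway gave no call between the genotypes. Among 78 mitochondrial ribosomal proteins, edgeR called 0 at an adjusted p below 0.05 and gave 3 an unadjusted p below 0.05, with a median log2 fold change of 0.0015. The values ran from -0.18 (*Mrpl47*) to 0.23 (*Mrps16*). Among 48 translation factors 0 passed and 0 had an unadjusted p below 0.05, with a median of 0.013 and extremes at *Eif2b1*, a subunit of the exchange factor for eIF2 (-0.17), and *Gspt1*, a release factor (0.18). Among 61 ribosome biogenesis factors 0 passed and 3 had an unadjusted p below 0.05, with a median of -0.025 and extremes at *Polr1e*, a subunit of RNA polymerase I (-0.26), and *Ddx10*, an RNA helicase (0.26).

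Among 30 regulators of translation and mTOR signaling, 0 passed the edgeR test and 2 had an unadjusted p below 0.05. *Ddit4*, which restrains mTOR signaling, had 108, 105 and 118 CPM in control and 73.7, 91.9 and 87.5 in NSKO mice. The genotypes did not overlap, and the log2 fold change was -0.39 with an adjusted p of 0.120 (edgeR). *Myc*, which drives ribosome production, had 1.35, 1.25 and 0.898 CPM in control and 1.45, 2.05 and 2.12 in NSKO mice, for a log2 fold change of 0.67 and an adjusted p of 0.908. The 83 tested nuclear genes of oxidative phosphorylation had 0 that passed and 0 with an unadjusted p below 0.05 (edgeR). Their median was 0.0046, with extremes at *Cox4i2* (-0.18) and *Cox6a2* (0.50). The 13 mitochondrially encoded genes had 0 that passed and 1 with an unadjusted p below 0.05, a median of -0.067 and a lowest value of -0.28 for *mt-Co2*.

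Slopes on library size were below 0 in 69 of the 83 tested nuclear oxidative phosphorylation genes (median -0.15). They were also below 0 in 11 of the 13 mitochondrially encoded genes and in 50 of the 78 mitochondrial ribosomal proteins. They were below 0 in 43 of 61 biogenesis factors, 27 of 48 translation factors and 15 of 30 regulators. In none of these lists did a slope pass an adjusted p below 0.05, and 2, 2, 5, 2, 6 and 4 genes had an unadjusted p below 0.05 (edgeR).

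Some ribosomal proteins have names or fusions that the symbol pattern leaves out. *Rps3a1*, picked out after its values were seen, had 233, 260 and 239 CPM in control and 236, 260 and 240 in NSKO mice, which gave a log2 fold change of 0.01. *Fau*, which encodes a ubiquitin-like protein fused to a small subunit protein, had a log2 fold change of -0.02, and *Rack1*, a scaffold on the small subunit, had 0.03. The paralogs *Rpl36al*, *Rpl22l1* and *Rpl7l1* had -0.03, -0.05 and -0.09. In the 6 genes other than *Rps3a1*, 0 passed the test and 0 had an unadjusted p below 0.05, and all 6 slopes on library size were below 0. With these 6 genes added, the share of counts was 1.43% ± 0.0515 in control and 1.44% ± 0.0686 in NSKO mice (SD, n = 3 in each).

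Ribosomal protein genes have many processed pseudogenes, and reads can be split between them and the parent. In the deposited counts 58 of the 77 genes had values that were not whole (tolerance 0.001), which marks reads assigned in part. The table held 296 named ribosomal protein pseudogenes with a summed share of 0.00555% ± 8.93e-05 in control and 0.00520% ± 0.000474 in NSKO mice (SD, n = 3 in each). Of these, 20 were tested, with 0 past the threshold and 1 with an unadjusted p below 0.05. With them added, the ribosomal protein share was 1.35% in the controls and 1.37% in the NSKO mice.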

How the data were processed

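Poly(A)-primed cDNA from whole cerebellum was sequenced as paired-end reads. Per the labels, the submitters' processing notes name FastQC, STAR, RSEM, DESeq2 and mm10, and versions and use of strand in counting are not given in the sources used here. The deposited values are expected counts per gene, which the authors did not normalize. Spike-in sequences (92) were left out.

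Expected counts were rounded and analysed in R 4.3.3 with edgeR 4.0.16 (TMM, filterByExpr, glmQLFit and glmQLFTest, no covariate, Benjamini-Hochberg over 16330 genes, threshold 0.05). CPM use TMM-scaled totals. The slope on library size was fitted with genotype in the model. DESeq2 1.42.0, limma-voom (limma 3.58.1), other scalings, filters, offsets, thinned libraries and left-out mice were alternatives. The fits were tested on simulated counts. Names, positions, transcript and coding lengths came from GENCODE M21 (GRCm38), with the transcript of the longest coding sequence, and promoter sequences from RefSeq.

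The members and lists were chosen with earlier results of these data known. Named members are the 6 largest rises and 6 largest falls, the 4 steepest slopes each way, the 5 highest and 5 lowest levels, and set functional members and paralogs. From each other list the largest rise and fall are named. Values of some single genes that this rule names are not reported here.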

Additional observations from a re-analysis of the deposited data

How the results depend on the processing

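In 17 alternatives of the genotype comparison, edgeR, DESeq2 or limma-voom called 0 of the 77 ribosomal protein genes, and 0 to 5 had an unadjusted p below 0.05. The share of all genes with such a p was taken only in the main edgeR fit, at 5.39%, so these counts have no background of their own. The median log2 fold change ranged from -0.026 to 0.047, the latter with log2 library size as a covariate (69 of 77 above 0). Leaving out 1 mouse at a time gave medians from -0.026 (without NSKO mouse 2) to 0.038, and differences in share from -0.0215 (without NSKO mouse 2) to 0.0433 percentage points (without NSKO mouse 1). With offsets for length and GC content the median was -0.013, with 30 genes above 0. Of 33 named members, 16 kept their sign in every alternative.

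In 13 alternatives of the fit on library size 0 of the 77 genes were called. The median slope was -0.11 without genotype in the fit and -0.087 with offsets for length and GC content, and it ran from -0.43 (without control mouse 1) to -0.14 (without control mouse 2) when 1 mouse was left out. The cause of these differences was not tested.

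Over all genes tested, 9 to 178 genes were called by genotype across the alternatives, 178 of them with no filter and 37 with DESeq2, against 16. Same-numbered mice of the genotypes had correlations of 0.142, 0.116 and 0.0104 in their deviations from the genotype means. The values for mice 1 and for mice 2 lay above all those between different numbers, which ran from -0.177 to 0.0665. Control mouse 3 correlated best with NSKO mouse 1, at 0.0355. The main fit did not take the numbers as pairs, and whether same-numbered mice shared a batch was not tested. The fit with a replicate block called 41 genes in all and 0 of the 77, of which 2 had an unadjusted p below 0.05 and the median was 0.0090. With 3 mice in each genotype, the intervals given show which differences fit these data, and not the smallest difference that could be detected.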

Other observations

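Below the count minimum, *Rpl3l*, the paralog of *Rpl3* used in heart and skeletal muscle, had 2, 3 and 4 counts in control mice and 9, 8 and 11 in NSKO mice. The level relative to the counts on genes was 2.71 times higher in NSKO mice, from 28 counts against 9, with an exact 95% interval of 1.25 to 6.54 that covers counting error only. With no filter on low counts, edgeR gave a log2 fold change of 1.38 (SE 0.705) and an unadjusted p of 0.0496 (0.905 adjusted). The 4 heart muscle markers *Myh6*, *Actc1*, *Tnnt2* and *Myl7* had summed levels of 0.706 to 1.67 CPM in control and 9.39 to 12.3 CPM in NSKO mice, and 3 of the 3 that were tested passed an adjusted p below 0.05 (edgeR). The part of these values in the *Rpl3l* counts was not tested. *Rpl3* itself had a log2 fold change of -0.06.

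The other paralogs below the minimum were close to absent. *Rpl39l* had 0, 0 and 2 counts in control and 0, 1 and 0 in NSKO mice. *Rpl10l*, which is best known from the testis, had 0 counts in all 6 libraries, and a count of 0 allows up to 3 counts per library.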
